A study of Mus musculus with 8 samples.

Results

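Flvcr2 and its paralogs Flvcr1, Mfsd7a and Dirc2 make up the SLC49 family of membrane transporters, and the 4 genes were taken by name from 24421 rows of a raw count table. The table gives Flvcr2 as Mfsd7c and Flvcr1 as Mfsd7b, both older symbols, and Dirc2 is now called Slc49a4. The study set brain endothelial cells of Flvcr2 knockout mouse embryos against those of Flvcr2 heterozygous embryos, with 4 libraries of each, all of the C57Bl6 strain at E14.5 (embryonic day). The Flvcr2 mutation makes cells produce GFP, and cells carrying both GFP and the endothelial surface protein CD31 were sorted. Cells of both groups therefore carry the mutation, and neither group is wild type. The GFP gate admits cells in which the mutated Flvcr2 gene is active, so the measured Flvcr2 level is that of cells picked for activity of the gene. Knockout cells may carry more GFP copies than heterozygous cells, so the gate may not have picked alike in both groups. This was not tested. The part of Flvcr2 that the mutation removes is not stated by the labels, and reads from a mutant transcript could carry the same symbol, so Flvcr2 counts do not check the genotype labels.

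Proteins of this family belong to the major facilitator superfamily, whose members carry small molecules across membranes by alternating between an outward-facing and an inward-facing shape. FLVCR1 is the receptor for feline leukemia virus subgroup C and was first described as an exporter of heme. Both FLVCR1 and FLVCR2 have since been described as transporters of choline, the head group of the main phospholipid of cell membranes. Loss of FLVCR2 in humans causes Fowler syndrome, in which vessels of the fetal brain grow abnormally. DIRC2 sits in the membrane of lysosomes. MFSD7A is the least studied of the family.

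The genes lie on separate chromosomes of GRCm38, the build named as mm10 in the submitters' processing notes. Flvcr2 (Entrez 217721) spans chr12:85746539-85813586, Flvcr1 (226844) chr1:191005832-191026190, Mfsd7a (243197) chr5:108441052-108450765 and Dirc2 (224132) chr16:35694062-35769370. Their longest coding transcripts in GENCODE have 10, 10, 10 and 9 exons and open reading frames of 551, 560, 516 and 478 codons. The promoters of the most and the least abundant member in these cells, Flvcr2 and Mfsd7a, are shown because their levels stand at the ends of the family. Each window holds the RefSeq start site near its 3′ end and is written 5′ to 3′ on the gene's strand (RefSeq, GRCm38.p6; chr12:85746289-85746588, plus strand, and chr5:108449051-108449350, minus strand). The windows of Flvcr2, Flvcr1 and Dirc2 begin 0.25 kb before the 5′ end of the gene span given above. That of Mfsd7a begins 1.415 kb inside its span, at a start site other than the outermost one. Capitals mark the E-box CACGTG, the GC box GGGCGG and the CCAAT box on either strand.
Flvcr2: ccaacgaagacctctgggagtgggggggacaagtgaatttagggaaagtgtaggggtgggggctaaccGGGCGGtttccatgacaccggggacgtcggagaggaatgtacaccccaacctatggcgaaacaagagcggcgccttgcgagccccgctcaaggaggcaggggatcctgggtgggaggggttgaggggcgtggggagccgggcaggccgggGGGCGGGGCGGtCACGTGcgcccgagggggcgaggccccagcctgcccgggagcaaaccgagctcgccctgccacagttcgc
Mfsd7a: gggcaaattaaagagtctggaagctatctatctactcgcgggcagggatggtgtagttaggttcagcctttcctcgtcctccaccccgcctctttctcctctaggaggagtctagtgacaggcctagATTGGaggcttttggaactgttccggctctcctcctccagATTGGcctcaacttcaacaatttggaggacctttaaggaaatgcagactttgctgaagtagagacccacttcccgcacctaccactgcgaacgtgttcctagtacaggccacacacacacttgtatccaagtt

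The Flvcr2 promoter holds 24 CpG dinucleotides and the window at this inner start site of Mfsd7a 8. The CpG and motif counts given for Mfsd7a in this paragraph are of that window only. The sequence at its outermost start site was not analysed here. The promoters of Flvcr1 and Dirc2, both expressed, hold 25 and 26. The median over 32851 promoters of the same length is 7, and 80.0% of them hold fewer CpG than that of Flvcr2. The E-box CACGTG occurs in 7.15% of these promoters. It was found once in the Flvcr2 promoter, 20 bases before the start site, and once in that of Dirc2, 207 bases before it. The GC box GGGCGG, present in 35.7% of promoters, was found 3 times in that of Flvcr2, with the pair nearest the start site sharing a base. It occurs 2 times in the Flvcr1 promoter, 1 time in that of Dirc2 and 0 times in that of Mfsd7a. CCAAT, present in 37.4% of promoters, was found 2 times in Flvcr1, 2 times in Mfsd7a, 1 time in Dirc2 and 0 times in Flvcr2. These are matches of letters within the windows and say nothing about binding.

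The libraries held 9.11 to 35.86 M counts. All 12 endothelial markers, among them Pecam1, which encodes CD31, were tested and present in every library, and 1 of them (Emcn) was called higher in knockout. Summed markers of neurons were at 284 to 1810 CPM in heterozygotes and 89.1 to 278 CPM in knockouts. Those of pericytes were at 174 to 277 and 22.8 to 172 CPM, and those of embryonic red cells at 228 to 611 and 17.6 to 51.8 CPM. These 3 lists did not overlap between genotypes, with 6 of 10, 2 of 9 and 2 of 4 tested markers called lower. Of all 13540 tested genes 5.53% were called higher and 4.02% lower. Taken singly, 7.9% of tested genes did not overlap, with the knockouts lower. The adult globin genes Hba-a1 and Hba-a2 are listed at 0. Microglial markers (529 to 1551 and 138 to 901 CPM; 1 of 10 called lower) and radial glia markers (1303 to 1422 and 1319 to 1564 CPM; 3 of 9 called lower) overlapped, as did those of fibroblasts (222 to 417 and 107 to 607 CPM; 0 of 7 called) and choroid plexus (10.4 to 9076 and 9.23 to 1150 CPM; 0 of 4 called). The radial glia sum was mostly Vim (868 and 1059 CPM on average) and Nes (206 and 264 CPM), neither of them called. All other radial glia markers had log2 fold changes below 0, from -3.29 (Emx2) to -1.11 (Fabp7). So did all microglial markers, from -1.67 (Ctss) to -1.05 (Csf1r). Heterozygous 2 and knockout 1 had 0 and 1 counts of Xist and 331 and 914 counts of the Y-linked gene Ddx3y, while the other 6 libraries had 229 to 1135 counts of Xist. Among these 6, Ddx3y had 28 counts in heterozygous 3, 56 in heterozygous 4, 6 in knockout 4 and 0 in the remaining libraries. Xist and Ddx3y differed in this way within each genotype, so its libraries did not all come from the same embryo. Whether each library stands for its own embryo is not stated by the labels. The p-values below therefore measure the spread between these libraries, which may be technical in part.

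In these endothelial cells, picked by the GFP gate for activity of the mutated Flvcr2 gene, the family was dominated by Flvcr2. Per kilobase of exon, Flvcr2 was at 124 ± 36.2 CPM in heterozygotes and 87.8 ± 21.4 CPM in knockouts (SD, n = 4 each). Both genotypes were divided by the annotated exon length, as the length of mutant Flvcr2 transcripts is not stated by the labels. Dirc2 followed at 15.6 ± 1.39 and 14.2 ± 1.66 CPM per kb, and Flvcr1 at 1.61 ± 0.653 and 2.10 ± 0.595 CPM per kb. The order was the same in each of the 8 libraries, and the ranges of neighbouring members did not meet: 66.1 to 168 CPM per kb for Flvcr2, 12.7 to 16.8 for Dirc2, 1.03 to 2.57 for Flvcr1 and 0 to 0.153 for Mfsd7a. Within a library the Flvcr2 level per kilobase was 25.7 to 110 times that of Flvcr1 and 4.61 to 10.04 times that of Dirc2. Flvcr2 stood above 93.2% of the 13436 tested genes with a known exon length on this scale, Dirc2 above 67.4% and Flvcr1 above 27.9%.

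Per kilobase, Flvcr2 made up 84.4 to 90.1% of family transcripts in heterozygotes and 80.7 to 87.2% in knockouts. Dirc2 made up 8.98 to 14.48% and 11.1 to 17.6%, and Flvcr1 0.816 to 1.71% and 1.31 to 3.14%. The ranges overlapped between genotypes for each of these 3 genes. In raw counts the share of Flvcr2 was lowest in knockout 2, at 73.2% (95% Wilson interval 71.7 to 74.6%), and highest in heterozygous 3, at 85.5% (85.0 to 86.1%). These intervals cover counting error only.

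**Figure D1:**
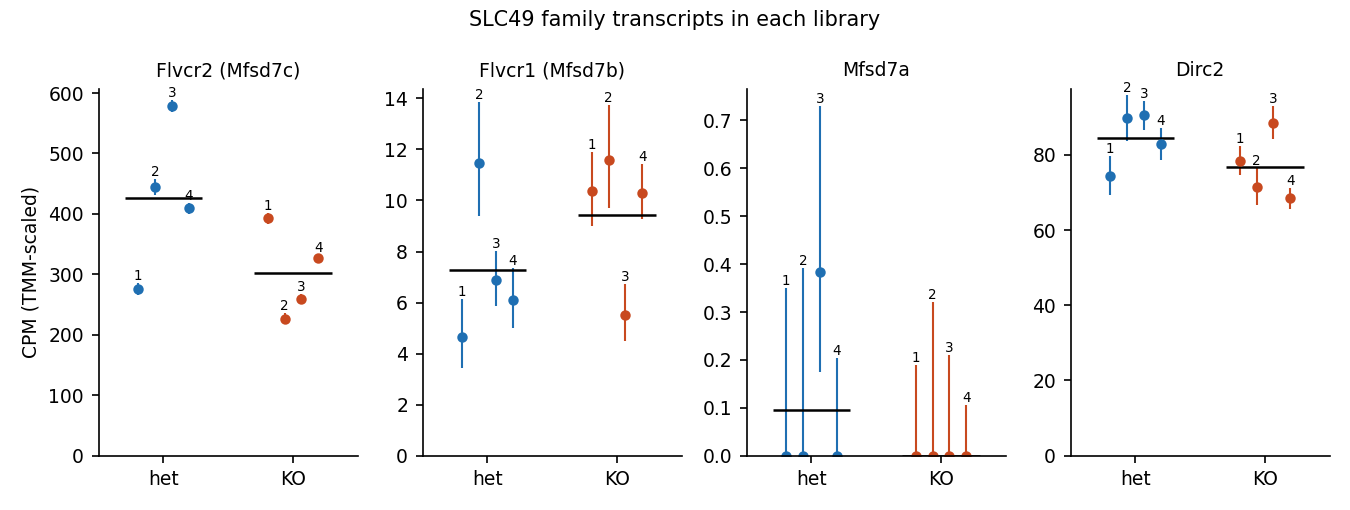
Level of each SLC49 member in CPM (TMM-scaled, linear axes from 0) in the 4 heterozygous (het, blue) and 4 knockout (KO, red) libraries, numbered by replicate. Vertical bars are exact 95% Poisson intervals, which cover counting error only, and horizontal lines are group means; the genotypes overlap for all 4 genes, and Mfsd7a was counted in heterozygous 3 alone.

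Flvcr2 itself was read abundantly in both genotypes. CPM here are counts scaled to the TMM-adjusted library size. Heterozygous libraries 1 to 4 were at 276, 444, 578 and 409 CPM of Flvcr2, from 2906, 4184, 13548 and 7376 counts. Knockout libraries 1 to 4 were at 393, 227, 260 and 326 CPM, from 7684, 2605, 4562 and 11312 counts. Heterozygous 3 stood highest, and heterozygous 1 lay among the knockout libraries, so the genotypes overlapped.

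The group means of Flvcr2 were 427 ± 124 and 301 ± 73.6 CPM (SD, n = 4 each). The log2 fold change was -0.50 ± 0.24 (SE), with a 95% interval from -1.02 to 0.02, and did not pass the test (edgeR quasi-likelihood test, adjusted p = 0.209, unadjusted p = 0.0565). On the fold scale the knockout level was 0.706 times the heterozygous level, with an interval from 0.493 to 1.01. The labels do not state which part of Flvcr2 the mutation removes. Reads lost from or kept by mutant transcripts may be part of this ratio, and so may a GFP gate that acted unlike on the genotypes. Neither was tested. The interval holds both a fall to near 0.493 of the heterozygous level and no difference. The coefficient of variation among libraries was 29.1% in heterozygous and 24.4% in knockout (the Poisson counting error of the reads was at most 1.96% in any library, and PCR copies are not independent molecules). In bulk samples fewer cells of a type and less RNA per cell cannot be told apart.

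The estimate for Flvcr2 moved with the libraries used but did not change direction. Without heterozygous 3 it was -0.32, and without heterozygous 1 it was -0.66; as each library was left out in turn, the edgeR adjusted p ran from 0.1003 to 0.459. Without heterozygous 2 and knockout 1, the libraries with almost no Xist, it was -0.63. With library size alone as the scaling it was -0.62, where the median of all tested genes was -0.15 in place of -0.03. DESeq2 gave -0.52 (adjusted p = 0.117, unadjusted p = 0.0278). The neuron, pericyte and red cell markers given above were lower in the same knockout libraries, and the microglial markers were lower on average. The part of these markers in the Flvcr2 value was not tested.

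Flvcr1, the closest relative of Flvcr2, was scarce. It was at 4.65, 11.5, 6.87 and 6.10 CPM in heterozygous libraries 1 to 4 and at 10.4, 11.6, 5.52 and 10.3 CPM in knockout libraries 1 to 4. The counts behind these values were 49 to 161 and 97 to 357. Knockout 1, 2 and 4 lay close together with heterozygous 2, while knockout 3 lay among the other heterozygous libraries. Means were 7.27 ± 2.94 and 9.45 ± 2.68 CPM (SD, n = 4 each). The log2 fold change was 0.38 ± 0.38 (SE; 95% interval -0.46 to 1.22; edgeR adjusted p = 0.579). Without heterozygous 1 the estimate was 0.22, without heterozygous 2 it was 0.68, without knockout 3 it was 0.58, and without heterozygous 1 and knockout 2 it was 0.11. The interval of the fit to all 8 libraries reaches from 0.727 to 2.32 times the heterozygous level.

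For Flvcr1, counting error alone amounted to 5.29 to 14.3% per library, against coefficients of variation of 40.5% and 28.4%. A230020J21Rik, which GENCODE places across the 5′ end of Flvcr1 on the opposite strand, had 6 to 47 counts per library. As no source used here states the strand setting of the counting, reads of these overlapping genes may not be separated.

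Dirc2, the lysosomal member, was the steadiest of the family. It was at 74.4, 89.7, 90.5 and 82.9 CPM in heterozygous libraries 1 to 4 and at 78.5, 71.4, 88.5 and 68.4 CPM in knockout libraries 1 to 4. All 8 libraries lay within 1.32-fold of each other, against 2.55-fold for Flvcr2 and 2.49-fold for Flvcr1. The means of 84.4 ± 7.50 and 76.7 ± 8.93 CPM (SD, n = 4 each) gave a log2 fold change of -0.14 ± 0.14 (SE; edgeR adjusted p = 0.588). Its 95% interval, from -0.45 to 0.18 (0.732 to 1.13 times the heterozygous level), was the narrowest of the 3 tested members.

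Mfsd7a had 9 counts in heterozygous 3 (0.384 CPM; exact 95% Poisson interval 0.176 to 0.729) and 0 counts in the other 7 libraries. It did not pass the filter on low counts and was not tested. A count of 0 allows up to 3 counts, which is 0.0866 to 0.319 CPM in the libraries at 0. Over all 4 knockout libraries the limit is 0.0360 CPM. A difference between genotypes was not detectable at this depth.

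Of the 4 members, 3 passed the filter and 0 of these were called by edgeR at an adjusted p under 0.05, where 9.55% of the 13540 tested genes were called (5.53% higher and 4.02% lower in knockout). At an unadjusted p under 0.05 the count was 0 by edgeR with TMM, where 25.6% of tested genes were under it, and 0 by limma voom (28.1%). Flvcr2 alone was under it by DESeq2 (28.0%) and by edgeR with DESeq2 size factors (unadjusted p = 0.0471), library size alone (0.0178), upper-quartile factors (0.0268) or a filter at 1 CPM in 4 libraries (0.0494). Flvcr2 was also under it in edgeR fits without heterozygous 1 (0.0100), without knockout 1 (0.0254) or without heterozygous 1 and knockout 2 (0.0197). Of all calls 57.9% were higher in knockouts with TMM, and 42.6% without any such factor. The genotypes overlapped for all 3 tested members, and did not overlap for 17.6% of tested genes (7.9% with the knockouts lower).

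**Figure D2:**
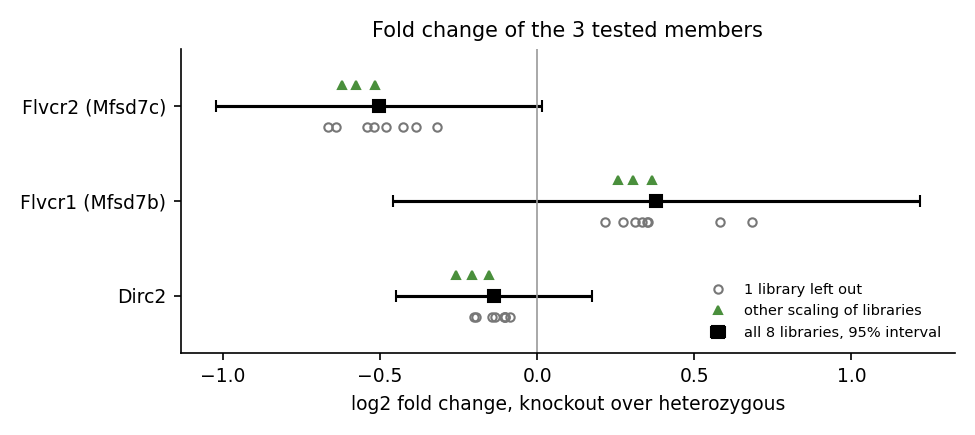
Log2 fold change, knockout over heterozygous, of the 3 tested members. Squares with bars are edgeR estimates from 8 libraries with 95% intervals, circles leave out 1 library each and triangles use another scaling of libraries; all 3 intervals include 0, and the estimates keep their side of 0 in these fits.

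Ratios inside a library do not depend on how libraries are scaled, and were used to ask whether the members shifted against each other. The log2 ratio of Flvcr2 to Flvcr1 counts was 5.88, 5.27, 6.39 and 6.06 in heterozygous libraries 1 to 4 and 5.24, 4.29, 5.55 and 4.98 in knockout libraries 1 to 4. It was lower in knockout by 0.88 on average (5.90 ± 0.47 against 5.01 ± 0.54, SD, n = 4 each). This did not pass the exact two-sided permutation test (p = 0.0571, adjusted p = 0.114 over 6 measures; the smallest p that 70 arrangements can give is 0.0286). Heterozygous 2 lay inside the knockout range. The ratio of Flvcr2 to Dirc2 differed by -0.35 (exact permutation test, p = 0.229, adjusted p = 0.309) and that of Flvcr1 to Dirc2 by 0.54 (p = 0.257, adjusted p = 0.309).

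Levels were then set against the mean log2 CPM of the 12 endothelial markers in the same library. The log2 level of Flvcr2 over these markers was -0.21, -0.19, 0.17 and -0.04 in heterozygous libraries 1 to 4 and -0.63, -0.99, -1.04 and -0.85 in knockout libraries 1 to 4. The genotypes did not overlap on this measure, with heterozygous 1 now beside the other heterozygous libraries. The means of -0.07 ± 0.18 and -0.88 ± 0.18 (SD, n = 4 each) differed by -0.81, and each of the 4 knockout libraries lay below each of the 4 heterozygous ones. The exact two-sided permutation test gave p = 0.0286, the smallest it can give, and an adjusted p of 0.0857 over the 6 measures, which does not pass. At this smallest value the adjusted p depends on how many other measures reach it too. A full separation of 1 measure could therefore not pass by itself.

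Dirc2 was also lower against the endothelial markers, at -2.10 to -2.50 in heterozygotes and -2.59 to -3.10 in knockouts. Its means of -2.36 ± 0.19 and -2.83 ± 0.24 (SD, n = 4 each) differed by -0.46 (exact permutation test, p = 0.0286, adjusted p = 0.0857). Flvcr1 over the same markers was at -5.95 ± 0.34 and -5.88 ± 0.53 (difference 0.07; exact permutation test, p = 0.857). The markers themselves stood at a mean log2 CPM of 8.76 ± 0.32 in heterozygotes and 9.08 ± 0.19 in knockouts (exact permutation test, p = 0.114), and 8 of the 12 had a log2 fold change above 0. A difference of 0.33 in the reference is therefore part of each of these values. With Emcn and Pecam1 taken off the list, a choice made after seeing the data, the differences were -0.68 for Flvcr2 (exact permutation test, adjusted p = 0.171) and -0.34 for Dirc2 (adjusted p = 0.229). Flvcr2 still did not overlap between genotypes on the shorter list, and Dirc2 did. The unadjusted exact permutation p of Flvcr2 stayed at 0.0286 there. Its adjusted p rose because the unadjusted p of Dirc2 went to 0.114. Of all 13540 tested genes, 14.2% lay lower in every knockout than in any heterozygous library when set over the 12 markers, and 10.5% over the shorter list. All 12 markers had a log2 fold change above that of Flvcr2, the nearest being Tek at -0.46 and Cldn5 at -0.45.

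**Figure D3:**
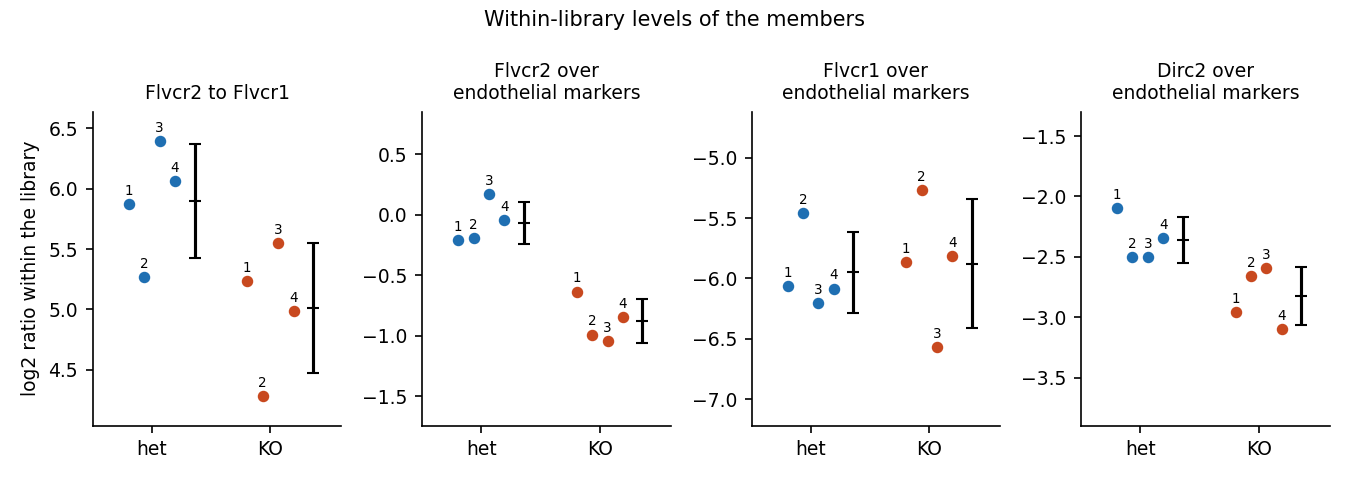
Log2 ratio of Flvcr2 to Flvcr1 counts, and log2 level of Flvcr2, Flvcr1 and Dirc2 over the mean of 12 endothelial markers, in each library (het, blue; KO, red; numbers are replicates; bars are mean ± SD, n = 4; each panel spans the same height on the log2 scale). Flvcr2 and Dirc2 over endothelial markers do not overlap between genotypes (as for 14.2% of tested genes, counting those lower in the knockouts), and Flvcr1 does.

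The genes beside each member were described next, taking the 3 nearest tested genes on either side. Flvcr2 lies in a stretch of chromosome 12 with Fos, Jdp2 and Batf, which encode AP-1 family transcription factors, on one side. On the other side are 0610007P14Rik, Ttll5 and Tgfb3. Of these 6 genes, Jdp2 rose and Fos fell, where 9.55% of all tested genes were called.

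Jdp2, a repressor among the AP-1 factors, lies 107 kb before Flvcr2. It was at 16.6, 13.9, 14.7 and 11.2 CPM in heterozygous libraries 1 to 4 and at 49.2, 26.7, 29.9 and 58.8 CPM in knockout libraries 1 to 4. Every knockout library was above every heterozygous one, and groups did not overlap in either direction for 17.6% of tested genes. Jdp2 rose 2.93-fold (log2 fold change 1.55 ± 0.28, SE; edgeR adjusted p = 0.00841) and stayed called whichever of the 8 libraries was left out. Without heterozygous 2 and knockout 1 its adjusted p was 0.0745.

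Fos, an immediate-early gene, lies 269 kb before Flvcr2. It fell by 1.52 on the log2 scale, from 293 ± 157 to 102 ± 33.9 CPM (SD, n = 4 each; edgeR adjusted p = 0.0327). The genotypes overlapped, as heterozygous 2 was at 117 CPM and knockout 1 at 142 CPM. Leaving out 1 library at a time, the Fos call was kept in 1 of 8 fits, the one without heterozygous 2 (edgeR adjusted p = 0.0506 to 0.0726 in the other 7).

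The genes directly beside Flvcr2 were not called. 0610007P14Rik lies 1.86 kb after Flvcr2 and was at 55.6 ± 6.61 CPM in heterozygotes and 76.0 ± 14.46 CPM in knockouts (log2 fold change 0.45 ± 0.17, SE; edgeR adjusted p = 0.127). Its groups did not overlap, as for 17.6% of tested genes, the highest heterozygous library being at 61.4 CPM and the lowest knockout library at 61.5 CPM. Batf, which lies 37.5 kb before Flvcr2, was at 15.1 ± 4.64 and 23.3 ± 5.91 CPM (log2 fold change 0.63 ± 0.30; edgeR adjusted p = 0.216). The log2 fold change of Flvcr2 was below 0 and those of both direct neighbours above 0.

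Of the 6 genes beside Flvcr1 and the 6 beside Mfsd7a, 0 were called by edgeR, with lowest adjusted p-values of 0.0703 (Vash2) and 0.395 (Cplx1); at an unadjusted p under 0.05 there were 1 and 0. Of the 6 genes beside Dirc2, Pdia5 rose and Dtx3l fell, where 9.55% of all tested genes were called. Pdia5, a protein disulfide isomerase gene of the endoplasmic reticulum, was at 47.8 ± 12.4 and 113 ± 17.0 CPM and rose 2.35-fold (edgeR adjusted p = 0.00601). Dtx3l, a ubiquitin ligase gene, fell by 1.53 on the log2 scale from 26.7 ± 9.93 to 9.23 ± 2.13 CPM (edgeR adjusted p = 0.0147). Both stayed called whichever of the 8 libraries was left out; without heterozygous 2 and knockout 1 the adjusted p was 0.0605 for Pdia5 and 0.0847 for Dtx3l, and blocking on replicate number that of Dtx3l was 0.0515. Of the direct neighbours of Dirc2, Sema5b, a semaphorin gene 29.8 kb away, was at 5.89, 2.55, 9.73 and 2.39 CPM in heterozygous libraries 1 to 4 and at 1.12, 0, 0 and 0 CPM in knockout libraries 1 to 4. The groups did not overlap, as for 17.6% of tested genes, and the log2 fold change of -4.14 ± 1.42 (SE) did not pass (edgeR adjusted p = 0.0959). Hspbap1, which lies 0.356 kb from Dirc2, was at 9.56 ± 2.49 and 12.4 ± 5.86 CPM (edgeR adjusted p = 0.575).

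**Figure D4:**
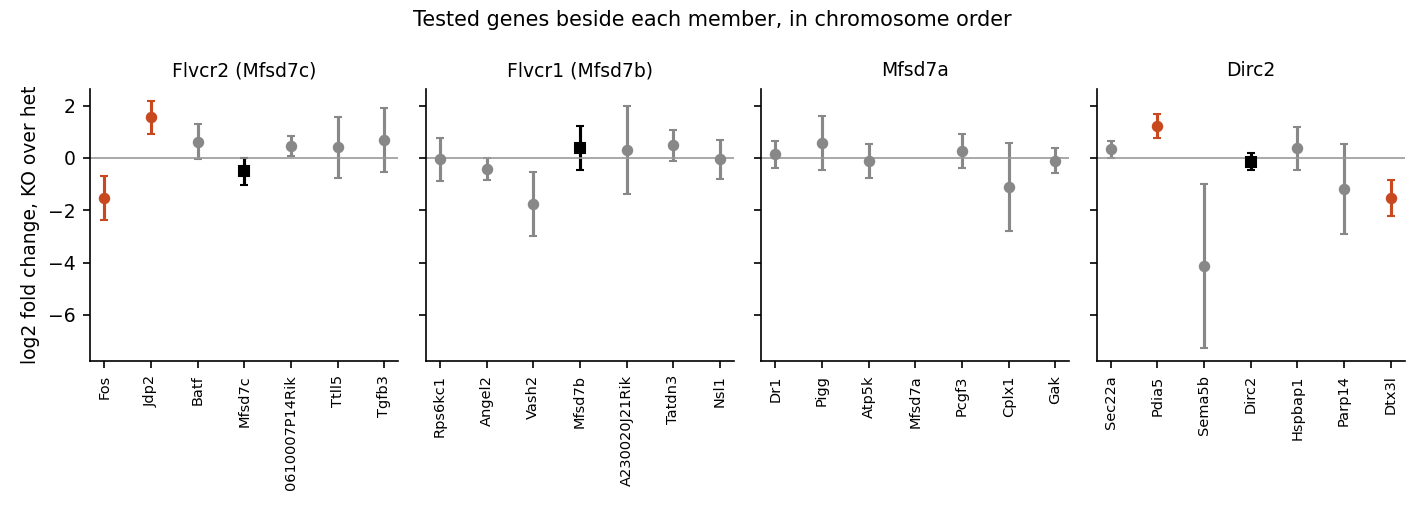
Log2 fold change, knockout over heterozygous, of the 3 nearest tested genes on either side of each member, in chromosome order and not to scale. Circles are neighbours (red where called at an edgeR adjusted p under 0.05), squares are the members and bars are 95% intervals; Fos and Jdp2 beside Flvcr2 and Pdia5 and Dtx3l beside Dirc2 were called, and Mfsd7a has no estimate.

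Genes whose levels followed those of Flvcr2 over the 8 libraries were ranked by Pearson correlation of log2 CPM among 8657 genes averaging at least 10 CPM. The 5 highest were Ablim1, an actin-binding protein gene (r = 0.98, Spearman rho 1), Ghr, the growth hormone receptor gene (r = 0.97, rho 1), Sema6a, a transmembrane semaphorin gene (r = 0.97, rho 0.98), Far2, a fatty acyl-CoA reductase gene (r = 0.97, rho 0.98), and Slc40a1, the gene for the iron exporter ferroportin (r = 0.97, rho 0.98). All 5 were lowest in knockout 2 or 3 and highest in heterozygous 3, as Flvcr2 was. Without the 2 libraries farthest from the median of Flvcr2 the 5 correlations were 0.92 to 0.98. They were picked as the highest of many over few libraries that share depth and genotype, so they are a description with no test.

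Slc40a1 was at 1677 ± 408 CPM in heterozygotes and 1099.9 ± 287 CPM in knockouts (SD, n = 4 each), and Ablim1 at 395 ± 127 and 233 ± 64.6 CPM. None of the 5 was called (edgeR adjusted p = 0.0965 for Ablim1, 0.112 for Sema6a, 0.120 for Slc40a1, 0.179 for Far2 and 0.229 for Ghr). Their log2 fold changes ran from -0.76 to -0.45, around the -0.50 of Flvcr2.

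The other members followed Flvcr2 less closely. Over the same 8 libraries the correlation of Flvcr2 was 0.07 with Flvcr1 (rho 0.05) and 0.59 with Dirc2 (rho 0.67), and that of Flvcr1 with Dirc2 was -0.26 (rho -0.14). The genes nearest to Flvcr1 were As3mt, an arsenic methyltransferase gene, Gnb1, a G protein beta subunit gene, and Hyal2, a hyaluronidase gene (r = 0.96, 0.95 and 0.95; rho 0.98, 0.88 and 0.76). Those nearest to Dirc2 were Sh3d19, Neo1, the netrin receptor gene neogenin, and Terf2, a telomere-binding protein gene (r = 0.97, 0.94 and 0.93; rho 0.98, 0.95 and 0.98).

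**Figure D5:**
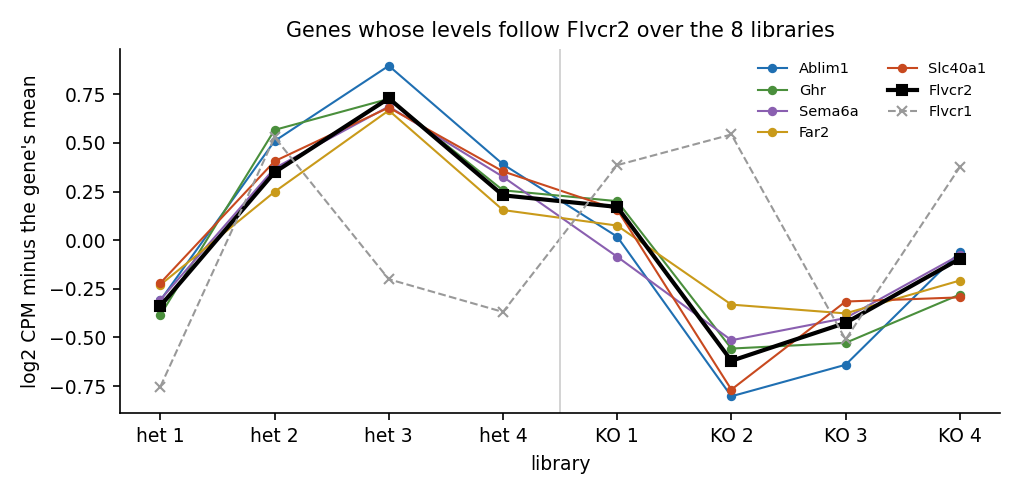
Log2 CPM minus the gene's own mean in the 8 libraries for Flvcr2 (black), the 5 genes that correlate most with it and Flvcr1 (dashed). Lines only join the points of a gene, as libraries have no order; the 5 genes rank heterozygous 3 highest as Flvcr2 does, and Flvcr1 does not.

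Enzymes and carriers on either side of choline transport were measured beside the family. Choline enters cells through several carriers, those of the Slc44 family among them. It is built into phosphatidylcholine by a choline kinase, a cytidine transferase and a phosphotransferase. The list, called the choline list below, also holds Etnk1, Etnk2, Pcyt2 and Selenoi of the matching ethanolamine route, and Pemt, which converts phosphatidylethanolamine. Of 17 genes listed 14 were tested, and 0 rose and 1 fell, where 9.55% of all tested genes were called. The median log2 fold change was -0.10 against -0.03 over all tested genes. At an unadjusted p under 0.05 there were 7 of the 14, against 25.6% of all tested genes. Apart from the called gene these were Pcyt1a, Cept1, Pemt and Etnk1, with log2 fold changes of 0.40 to 0.81, and Pcyt1b and Pcyt2, with -2.71 and -0.53 (edgeR adjusted p = 0.0965 to 0.181). The gene that fell was Slc44a5, a choline-transporter-like gene. It was at 4.08, 9.98, 12.2 and 7.38 CPM in heterozygous libraries 1 to 4, against 1.23, 0.0871, 2.51 and 0.289 CPM in knockout libraries 1 to 4. Every heterozygous library was above every knockout library, as for 7.9% of tested genes. The log2 fold change was -3.02 ± 0.83 (SE; edgeR adjusted p = 0.0459), and with 1 library left out at a time the call was kept in 1 of 8 fits, the one without knockout 3. Without heterozygous 2 and knockout 1 the adjusted p was 0.184, and without heterozygous 1 and knockout 2 it was 0.0535. Neuron markers were lower in the same libraries (89.1 to 278 against 284 to 1810 CPM). Those of pericytes, red cells and microglia were lower on average too. The part of these markers in the Slc44a5 value was not tested.

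Of the 17 genes listed for heme traffic and breakdown 16 were tested, and 0 rose and 1 fell, where 9.55% of all tested genes were called. Their median log2 fold change was 0.01. By edgeR 2 were at an unadjusted p under 0.05, against 25.6% of all tested genes. The called gene was Lrp1, the receptor for heme bound to hemopexin, which also serves many other ligands. Lrp1 was at 26.2, 12.3, 24.8 and 26.0 CPM in heterozygous libraries 1 to 4, against 9.61, 3.66, 11.2 and 4.85 CPM in knockout libraries 1 to 4. The groups did not overlap, as for 17.6% of tested genes, with heterozygous 2 nearest to the knockout libraries. Lrp1 fell by 1.605 on the log2 scale (edgeR adjusted p = 0.0325), and with 1 library left out at a time the call was kept in 2 of 8 fits, those without heterozygous 2 or knockout 3. Without heterozygous 2 and knockout 1 the adjusted p was 0.0580, and without heterozygous 1 and knockout 2 it was 0.101. Pericyte markers were at 174 to 277 CPM in heterozygotes and 22.8 to 172 CPM in knockouts. Neuron markers were at 284 to 1810 and 89.1 to 278 CPM, and microglial markers at 529 to 1551 and 138 to 901 CPM. Of the radial glia markers, all but Vim and Nes had log2 fold changes below 0. The part of any of these markers in the Lrp1 value was not tested.

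Of 21 other genes of the major facilitator superfamily 18 were tested, and 0 were called by edgeR (2 at an unadjusted p under 0.05, against 25.6% of all tested genes; 2 called by DESeq2, which called 16.4% of all tested genes). Their median log2 fold change was 0.23. The most abundant was Mfsd2a, the carrier of lysophosphatidylcholine in brain endothelium, at 1171 ± 423 and 1231 ± 352 CPM (SD, n = 4 each; edgeR adjusted p = 0.901). Next came Mfsd5, at 152 ± 8.17 and 214 ± 30.9 CPM (log2 fold change 0.49 ± 0.14, SE; edgeR adjusted p = 0.0530), whose groups did not overlap. Groups did not overlap for 17.6% of tested genes. Called shares of 7.14% of the choline list, 6.25% of the heme list and 0% of this list stand against 9.55% of all tested genes.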

How the data were processed

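Raw counts per gene symbol were deposited by the authors as whole numbers for 8 libraries of sorted brain endothelial cells, made with SMART-Seq v4 and Nextera XT kits per the labels' protocols. The submitters' processing notes name TopHat2 0.7, Cufflinks 2.2.1 and mm10; no source used here names the counting program or its strand setting. Counts were analysed in R 4.3.3 with edgeR 4.0.16: filterByExpr (minimum count 10, minimum total 15; 13540 genes), TMM factors and the quasi-likelihood F test with robust dispersion, no covariate and Benjamini-Hochberg adjustment over all tested genes. Calls are adjusted p-values under 0.05, and the standard error is the log2 fold change divided by the square root of F. In counts simulated for this comparison over 13540 genes, the test called 29 of 100 genes changed 2-fold and 61 of 100 changed 4-fold, with 4 false calls among 94. Ratios used counts plus 0.5, and log2 CPM a prior count of 2. Exon lengths are unions over the GENCODE M21 basic set, and promoters and places come from RefSeq (GRCm38.p6). Named genes were all members, the called or direct neighbours, up to 4 called genes of each list (or the 2 most abundant) and the genes most like each member (5 for Flvcr2, 3 for the others). Members and lists were chosen with earlier results of these data known. Alternatives were other scalings and filters, DESeq2 1.42.0, limma 3.58.1 voom, a non-robust dispersion, a replicate block, other pseudocounts and marker lists, and left-out libraries.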

Additional observations from a re-analysis of the deposited data

Results flagged for a closer look

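Of 40 groups of 4 libraries checked, 4 held a library whose gap to the nearest other exceeded 0.829 of the group's range; chance gives about 1 in 20. Mfsd7a in heterozygous 3 was at 0.384 CPM, with the other heterozygous libraries at 0. Batf in knockout 3 was at 14.6 CPM, against 24.9 to 27.0 in the other knockout libraries. Lrp1 in heterozygous 2 was at 12.3 CPM, against 24.8 to 26.2 in the other heterozygous libraries. Mfsd5 in knockout 3 was at 168 CPM, against 227 to 233 in the other knockout libraries.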

How the results depend on the processing

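The log2 fold changes of Flvcr2, Flvcr1 and Dirc2 kept their direction and stayed uncalled in all 57 fits with another setting. For Flvcr2 they ran from -0.66 to -0.32 (adjusted p = 0.1003 to 0.459 over edgeR, DESeq2 and limma). Mfsd7a was at 0 in every knockout library, and no fold change of it is reported here under any setting. Same-numbered libraries of the 2 genotypes did not deviate together (r = 0.06, 0.21, -0.05 and 0.02), so the numbers were not taken as pairs, and 1 of 4 heterozygous libraries correlated best with its own number. With the replicate block the log2 fold change was -0.49 for Flvcr2, 0.40 for Flvcr1 and -0.14 for Dirc2, and 868 genes were called in all. The within-library measures kept their direction in 70 of 72 alternatives. None passed, though without heterozygous 2 and knockout 1 none could, as the smallest exact p is then 0.1; paired by replicate block the smallest exact sign-flip p was 0.125, the smallest it can give. Flvcr1 over endothelial markers reversed to -0.01 without heterozygous 3 and to -0.13 without knockout 2 (-0.13 to 0.30 with 1 library left out at a time); the cause was not tested. The count of 1293 called genes became 2221 with DESeq2, 2081 at an adjusted p under 0.10, 300 without heterozygous 2 and knockout 1, 842 without heterozygous 1 and knockout 2, and 579 to 1347 without 1 library. The 1 called gene of the choline list and of the heme list became 0 without heterozygous 2 and knockout 1 and without heterozygous 1 and knockout 2, and ran from 0 to 1 without 1 library. Called genes of the other transporters went from 0 to 1 with library size alone and 2 with DESeq2, and ran from 0 to 1 without 1 library.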
